A study of Mus musculus with 21 samples.

Results

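Thymic conventional dendritic cells (cDCs) of the 2 subsets cDC1 and cDC2 were compared for how far each gene moved on maturation, and the quantity described throughout is the difference between the 2 maturation effects, that is, the log2 change from immature to mature cDC2 minus the log2 change from immature to mature cDC1. All 13 thymic libraries of the 21 in the series entered it: 4 of immature cDC1, 3 of mature cDC1, 3 of immature cDC2 and 3 of mature cDC2, over 14512 genes of 37734 listed. The cells of all groups came from C57BL/6 (B6) mice of 6-8 weeks, and each library pooled cells of 10-15 mice, so that the spread between libraries is a spread between pools. After digestion and enrichment on CD11c beads, cDC1 were sorted as CD24+CD11b-CD11c+ cells that lacked F4/80, Ly6g, Ly6c, DX5 and B220, and cDC2 as CD24-CD11b+CD11c+ cells that lacked B220. Mature cells were CCR7+Esam+ and immature cells CCR7-Esam-. A positive difference therefore means that a gene rose more, or fell less, in cDC2, and a negative difference that it rose more, or fell less, in cDC1.

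cDC1 and cDC2 are the conventional subsets of antigen-presenting dendritic cells: cDC1 depend on IRF8 and BATF3 and are known for cross-presentation to CD8 T cells, and cDC2 use IRF4 and present mainly to CD4 T cells. In the thymus both present self-antigen to developing T cells, which deletes strongly self-reactive clones or diverts them into the regulatory lineage. On maturation a cDC turns on CCR7, the receptor for the chemokines CCL19 and CCL21, together with costimulatory ligands, and gives up much of its uptake machinery.

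The libraries held 14266867 to 40119669 reads. The sorted phenotypes were present in the RNA, with Xcr1 at 20274, 20744, 16194 and 19180.1 normalised read counts in immature cDC1 and 88.6, 251 and 364 in immature cDC2, and Sirpa at 173 to 265 against 13773 to 16706. The mature cDC2 libraries did not form an even group. Summed over a list of macrophage markers, mature cDC2 replicates 1 and 2 stood at 59267 and 66134, and replicate 3 at 13778, where immature cDC2 ranged from 31316 to 43239 and cDC1 of either state from 5779 to 10880.2. The monocyte list gave 23849, 31179.9 and 6793 in mature cDC2. By the threshold given below, 2 of 14 macrophage markers tested had a positive and 0 a negative difference. Of 8 monocyte markers tested, 3 had a positive and 1 a negative difference (beside 7.1% and 5% of all genes). Mature cDC1 replicate 3 kept more RNA of the class II gene H2-Ab1 than the other 2, at 63629 against 22456 and 16242. The comparison was refitted with replicate 3 as the lone mature cDC2 library and without mature cDC1 replicate 3, and counts of gene lists that moved in these refits are given with the lists or after them. In the first refit the lone library is assumed to vary like the other groups. In such bulk samples, fewer cells of a type and less RNA per cell cannot be told apart.

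The thymocyte and T-cell list summed to 456-569.7 in immature and 11816-13012 in mature cDC1, and to 618-949 in immature and 13551-13895 in mature cDC2. Tcf7 was the most abundant of its genes and made up 91.4% of the sum in mature cDC2 replicate 1, so there the sum mostly reflects Tcf7. The defining T-cell gene Cd3e was low and also stood higher in every mature library, with at most 11.1 in immature and 24.3 to 86.6 in mature cDC1, and at most 14.02 in immature and 29.9 to 79.3 in mature cDC2. Cd8b1 and Rag1, which developing T cells express, were likewise higher in every mature than in every immature library of the same subset, Cd8b1 reaching 1034 in mature cDC1. Of 14 genes of this list tested, only Cd8b1 had a different maturation effect by the threshold given below, a negative one. The part of such RNA in the differences was not tested. The list of plasmacytoid dendritic cells ran from 5775 to 11505 in cDC1 and from 13083 to 17440.0 in cDC2. Thymic epithelial markers, which include the adhesion genes Cdh1 and Epcam that dendritic cells also use, were highest in immature cDC2 at 13035 to 14819. Stromal and endothelial markers were likewise highest there at 4578 to 5089.7. Kdr was the most abundant of these, with 95.7% of the sum in mature cDC2 replicate 1. B-cell, neutrophil, natural killer and red blood cell lists summed to at most 453, 102, 172 and 18.4 in any thymic library.

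The maturation effect differed between the subsets for 1757 of 14512 genes, or 12.1% (limma's moderated test on log2 of the value plus 1, Benjamini-Hochberg adjusted p below 0.1 and a difference beyond 1 on the log2 scale). The difference was positive for 1031 genes (7.1%) and negative for 726 (5%). Genes that moved the same way in both subsets but by unequal amounts numbered 767. Of these, 297 rose more in cDC1 and 52 rose more in cDC2, and 399 fell more in cDC1 and 19 fell more in cDC2. With replicate 3 as the lone mature cDC2 library the corresponding counts were 196, 31, 152 and 46, so that the lean of the falling genes towards cDC1 was smaller there. Without mature cDC1 replicate 3 those counts were 287, 58, 606 and 22. With the leading number of the library name as a fixed replicate block they were 121, 12, 109 and 112, so that the falling genes no longer leaned to cDC1. That block absorbs any library whose number no other thymic library carries, namely mature cDC2 replicates 1 and 2 and mature cDC1 replicate 2. Mature cDC2 there rests on replicate 3, so the block is not a separate check from the refit with that library alone. The library names carry a sequencing lane, and 1 immature library of each subset came from lane 5 and the other 11 from lane 8. Within lane 8, 1156 genes were called, of which 1111 were among those called over all 13 libraries.

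A smaller set of genes changed direction or moved in 1 subset. Changes in opposite directions, each beyond 2-fold and each called on its own, were found for 46 genes (0.317% of those tested). A change in cDC1 with an effect in cDC2 whose 95% interval lay wholly within 2-fold was found for 168 genes (1.16%), and the converse for 69 (0.475%). The intervals behind these classes had a median half-width of 0.57 in cDC1 and 0.61 in cDC2 on the log2 scale, so the sizes of the classes also depend on this precision. For the remaining 707 genes with a different effect, the change in at least 1 subset either missed its own threshold or could not be held within 2-fold. Over all genes tested the median difference was 0.103.

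**Figure D1:**
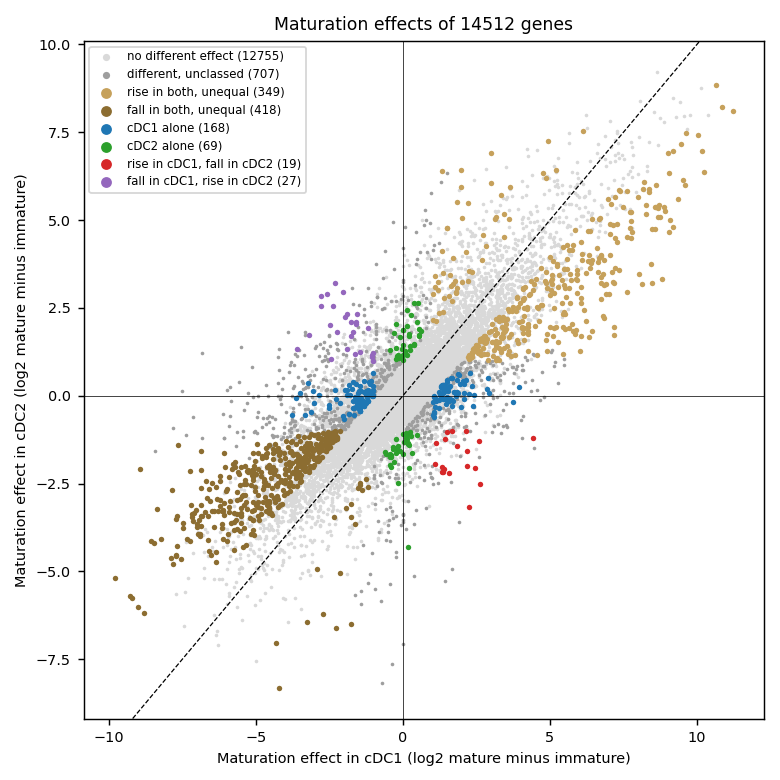
Maturation effect in cDC2 (vertical axis) against that in cDC1 (horizontal axis), both as log2 mature minus immature, for every gene tested. Each point is a gene coloured by its class, the dashed line marks equal effects, and the 27 genes that fell in cDC1 and rose in cDC2 lie in the upper left corner and the 19 with the converse in the lower right.

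For genes of the opposite-direction class, the subsets mostly stood further apart before maturation than after it. The median gap between immature cDC2 and immature cDC1 of these 46 genes was 3.72 on the log2 scale, and that between the mature groups 1.16. The gap was the smaller among mature cells for 38 of the 46, against 44.1% of all genes tested. For 13 of them the order of the subsets was exchanged, with a gap beyond 2-fold on both sides. Genes that rose in both subsets by unequal amounts had a median gap of 1.70 before and 0.60 after, whereas for those that fell in both the gap grew from 0.59 to 1.46. These gaps and the difference of effects come from the same libraries and are a description.

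Of the 19 genes that rose in cDC1 and fell in cDC2, the 6 with the largest difference and a mean of at least 100 in some group were Osm, Xkrx, Ccl9, Axl, Ifit1 and Ifitm1. Osm (chr11:4236420-4241026, annotated genes here and below in GRCm38, the mm10 build of the files) encodes oncostatin M, a cytokine of the interleukin-6 family. Its normalised read counts were 28.7, 36.6, 34.3 and 23.2 in immature and 522, 620.4 and 958 in mature cDC1, and 3072, 3746 and 2847 in immature and 1296, 1826 and 1109 in mature cDC2. No library of either subset overlapped between the states, and the effects of 4.44 ± 0.24 in cDC1 and -1.21 ± 0.26 in cDC2 (log2, ± SE) differed by -5.65 ± 0.35 (adjusted p = 2.38e-07, limma). Ccl9 (chr11:83572919-83578636), a CC chemokine of mice, went from 17.7, 27.5, 14.04 and 29.3 to 162, 72.8 and 146 in cDC1 and from 2672, 2902 and 2087 to 669, 750.3 and 433 in cDC2, a difference of -4.52 ± 0.49 (adjusted p = 3.50e-05). It thus stayed far lower in cDC1 than in cDC2 in both states. Axl (chr7:25757273-25788705), a receptor tyrosine kinase that binds GAS6 and takes part in the clearance of apoptotic cells, was 355, 289, 334 and 284 and then 1941, 948 and 3615 in cDC1, and 8343, 6978 and 7363 and then 4117, 4167 and 1719 in cDC2 (difference -3.87 ± 0.53, adjusted p = 2.31e-04).

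Ifit1, which encodes an interferon-induced binder of uncapped viral RNA, read 97.99, 89.9, 68.7 and 61.6 in immature and 189.9, 379.5 and 655 in mature cDC1. In cDC2 it fell from 1838, 2178 and 2005 to 656, 652 and 706, so that the effects differed by -3.77 ± 0.46 (adjusted p = 8.24e-05). Ifitm1, an interferon-induced membrane protein, was low throughout cDC1, at 7.60, 6.66, 3.12 and 10.1 and 33.2, 10.4 and 26.4, and fell from 108, 158 and 98.1 to 22.3, 20.9 and 33.7 in cDC2. Xkrx, a gene of the XK family, was likewise low, rising from 10.1, 10.8, 3.12 and 1.01 to 18.4, 50.3 and 19.99 in cDC1 and falling from 98.2, 129.9 and 115 to 6.91, 16.7 and 14.1 in cDC2. For both of these the values in cDC1 rest on few reads, at most 33 for Ifitm1 and 29 for Xkrx in any mature cDC1 library.

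With replicate 3 as the lone mature cDC2 library all 6 genes kept an estimated fall in cDC2 beyond 2-fold, with fitted effects of -1.53 for Osm, -2.54 for Ccl9, -2.13 for Axl, -1.50 for Ifit1, -1.78 for Ifitm1 and -2.92 for Xkrx. Oasl2, Hivep2 and Rin2, of the same class, were named after their values were seen. Oasl2, an interferon-induced relative of the oligoadenylate synthases, rose by 2.14 in cDC1 and fell by 1.01 in cDC2. Hivep2, a zinc-finger transcription factor, and Rin2, an exchange factor for RAB5, differed by -3.29 ± 0.38 and -2.52 ± 0.26. Myo1e and Ticam2, a class I myosin and the TRAM adaptor of TLR4, differed by -2.68 ± 0.51 and -2.48 ± 0.56, with overlapping mature and immature cDC1 libraries for Myo1e. Exons of Ticam2 overlap those of Tmed7 on the same strand, so its reads are uncertain.

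**Figure D2:**
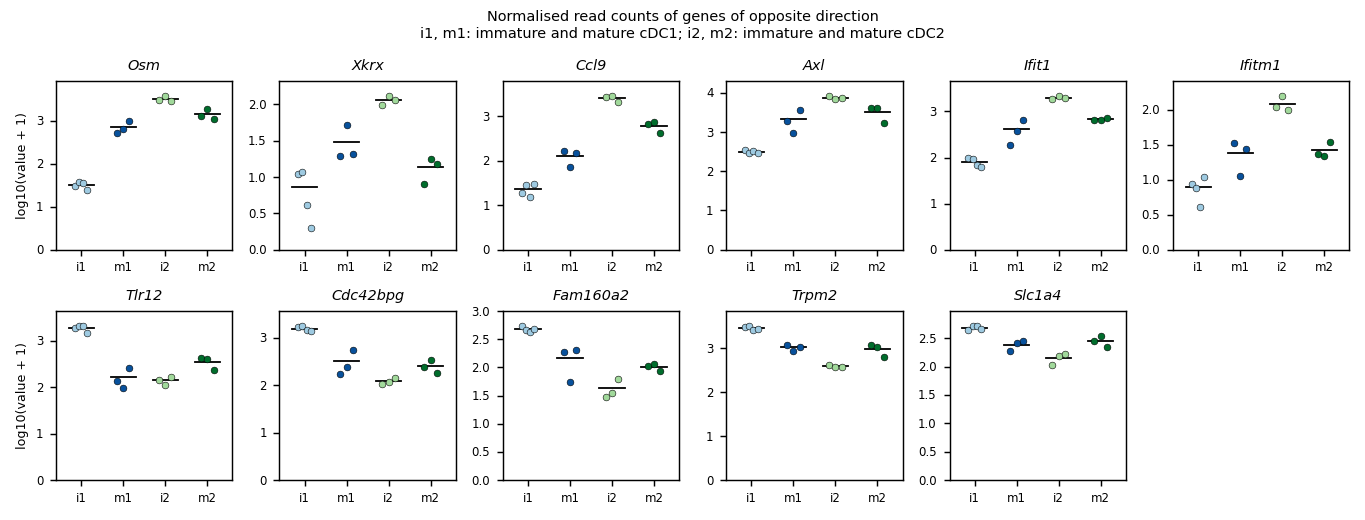
Normalised read counts (vertical axis, log10 of the value plus 1) in every thymic library for the 11 genes of opposite direction described in the text. Each point is a library, the horizontal bars are group means, and the upper row of genes rose in cDC1 and fell in cDC2 while the lower row did the converse.

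The 27 genes that fell in cDC1 and rose in cDC2 included, as the largest difference at a mean of at least 100 in some group, Tlr12, an endosomal receptor that recognises profilin of protozoan parasites together with TLR11. Tlr12 (chr4:128615443-128618619) stood at 1860.1, 2029, 2018 and 1462 in immature and 135, 95.3 and 259.9 in mature cDC1, and at 138, 111 and 164 in immature and 427, 399 and 229 in mature cDC2. The effects were -3.60 ± 0.31 and 1.31 ± 0.33, with a difference of 4.92 ± 0.45 (adjusted p = 6.87e-06) and the mature groups overlapped, whereas every immature cDC1 library was above every immature cDC2 library. Trpm2 (chr10:77907722-77970563), a calcium-permeable channel opened by oxidative stress, went from 3115, 3177, 2589 and 2788 to 1204, 877 and 1086 in cDC1 and from 424, 374 and 372 to 1198, 1054 and 618 in cDC2. The mature groups of the 2 subsets overlapped, and the effects differed by 2.71 ± 0.29 (adjusted p = 2.89e-05).

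Cdc42bpg, a kinase that acts downstream of CDC42 on the cytoskeleton, read 1668, 1763, 1484 and 1375 and 173, 241 and 561 in cDC1, and 104, 117 and 140.2 and 247, 342 and 184 in cDC2, a difference of 3.50 ± 0.47 (adjusted p = 2.11e-04). Fam160a2, a partner of the hook proteins in vesicle transport, fell from 538, 462, 421 and 482 to 184, 53.7 and 205 and rose from 28.8, 33.5 and 62.3 to 104, 114 and 83.98. Slc1a4, a transporter of small neutral amino acids, lay at the edge of the class, with 440.1, 512, 510.3 and 449.7 and 186, 258 and 278 in cDC1 and 105, 153 and 164 and 279, 341 and 224 in cDC2, and effects of -1.003 ± 0.23 and 1.001 ± 0.25. Exons of a predicted gene lie opposite those of Fam160a2, and whether strand was used in counting is not given in the sources used here. With replicate 3 as the lone mature cDC2 library the effects in cDC2 were 0.75 for Tlr12, 0.67 for Trpm2, 0.62 for Cdc42bpg, 1.08 for Fam160a2 and 0.69 for Slc1a4. Among these 5 only Fam160a2 thus kept an estimated rise beyond 2-fold, and barely so. These are sizes and not calls, since a single library has no spread of its own. Over the whole class, opposite estimates each beyond 2-fold were kept in that refit by 17 of the 19 genes that rose in cDC1 and by 20 of the 25 of 27 that rose in cDC2 and could still be tested.

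Only 7 of these 27 genes reached a mean of 100 in some group, against 14 of the 19 that rose in cDC1. Mature and immature libraries did not overlap in either subset for 31 of the 46 genes of opposite direction, which had been chosen as changed in both subsets, and for 44.6% of all genes tested. Spleen libraries, which the contrast did not use, gave a reading of the starting gap: immature splenic cDC2 and cDC1 differed in the same direction as their thymic counterparts for 17 of 19 genes that rose in cDC1 and for 19 of 27 that rose in cDC2. Osm averaged 9.83 in splenic cDC1 and 531 in splenic cDC2, and Tlr12 1824 and 44.2. Among all 3095 genes with a thymic gap beyond 2-fold, 2609 had the same sign in spleen. Of the genes of opposite direction, 42 had a thymic gap that large, and 34 of these had the same sign in spleen.

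Genes that changed in cDC1 with no change beyond 2-fold in cDC2 comprised 74 that rose and 94 that fell. Irf4 (chr13:30749226-30766976), the transcription factor on which cDC2 depend, was foremost among the rises. It stood at 272, 206, 78.02 and 199 in immature and 2137, 1821 and 3117 in mature cDC1, while cDC2 held 8542, 10832 and 9003 before and 7469.9, 8894 and 8473 after maturation. The effect in cDC1 was 3.73 ± 0.31 and that in cDC2 -0.19 ± 0.33 with a 95% interval of -0.90 to 0.53 (difference -3.92 ± 0.46, adjusted p = 6.06e-05). Mature cDC1 nevertheless kept less Irf4 than cDC2 of either state.

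Il2rg, the common gamma chain shared by the receptors for interleukins 2, 4, 7, 15 and 21, rose from 228, 239, 275 and 130.4 to 3268, 3345 and 3257 in cDC1, and was 2878, 2231 and 3377 before and 3763, 3481 and 2837 after in cDC2. The 3 mature cDC1 libraries lay within the range of the 6 cDC2 libraries. Ccrl2, a receptor that presents the attractant chemerin, followed the same course, with means of 437 and 3217 in cDC1 and 2893 and 3357 in cDC2 (difference -2.68 ± 0.24, adjusted p = 4.78e-06). Klf9, a Krüppel-like transcription factor, went from 45.2 to 349 in cDC1 beside 313 and 355 in cDC2. For 45 of the 74 genes that rose in cDC1 alone, the mean level of cDC2 lay more than 2-fold above that of immature cDC1, and for 0 it lay more than 2-fold below. For the 94 that fell in cDC1 alone, it lay more than 2-fold below for 33 and above for 1. Both classes were chosen by their change in cDC1, and no share over all genes stands beside these counts. Exons of a predicted gene overlap Il2rg on the same strand.

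Receptors and enzymes that immature cDC1 held at high levels led the falls in cDC1 alone. Tlr11 (chr14:50357914-50363663), the partner of TLR12 in profilin recognition, fell from 5462, 4896, 4316 and 4639 to 625, 432 and 499 in cDC1 and was 365, 408 and 402 before and 540.5, 371 and 634 after in cDC2 (difference 3.59 ± 0.26, adjusted p = 9.37e-07). Both receptors of the profilin pair thus fell in cDC1, and the mature groups of the 2 subsets overlapped in Tlr11. Anpep encodes aminopeptidase N (CD13), which trims peptides at the cell surface, and fell from 13627, 13696, 13905 and 9967 to 995, 724 and 1135, beside 7118, 5849 and 7590.4 and 5597, 4551 and 3927 in cDC2. Rnase6, a ribonuclease with antimicrobial activity, fell from a mean of 4311 to 403 in cDC1 and stayed at 3122 and 3269 in cDC2, and Fndc7, a fibronectin type III domain protein, fell from 2557 to 209.5 beside 134 and 129.8.

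Rnase6 and Anpep differed from Tlr11 and Fndc7 in their starting point, since immature cDC2 held the former pair at mean levels within 2-fold of immature cDC1 and kept them. Ncf4, the p40 subunit of the phagocyte NADPH oxidase, fell by 3.32 in cDC1 and by 0.55 in cDC2. In all, 3 of 11 genes of that oxidase were called, beside 12.1% of all genes. Cd24a, whose product was a gate of the sort, fell by 1.91 in cDC1 and moved by 0.03 in cDC2, which had been sorted as CD24-.

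Changes in cDC2 alone comprised 35 rises and 34 falls. Itga6 (chr2:71745616-71858416) encodes integrin alpha 6, a receptor for laminin. It rose from 217, 236 and 224 to 1266, 1192 and 1891 in cDC2 and was 889, 702, 624 and 762 and 997, 912 and 975 in cDC1, whose effect of 0.38 ± 0.17 had an interval of 0.01 to 0.75 (difference 2.27 ± 0.25, adjusted p = 4.60e-05). Asap2, a GTPase-activating protein for ARF, rose from 408 to 2527 beside 1569 and 2201 in cDC1, and Foxj1, a forkhead factor of ciliated cells and T-cell quiescence, from 6.05 to 35.4 beside 134 and 149. Exons of Asap2 overlap other annotated genes on both strands. With replicate 3 as the lone mature cDC2 library the effects in cDC2 were 3.06 for Itga6, 2.75 for Asap2 and 2.32 for Foxj1.

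Among the falls in cDC2 alone, Flt1 (chr5:147561604-147726011) encodes the receptor VEGFR1. It fell from 2979, 2254 and 2565 to 153, 163 and 84.8 in cDC2 and was 236, 212, 151 and 279.9 and 275, 270.4 and 194 in cDC1, a difference of -4.50 ± 0.39 (adjusted p = 3.96e-06). Immature cDC2 stood 3.58 above immature cDC1 on the log2 scale, and mature cDC2 -0.92 from mature cDC1. Aff3, a nuclear factor of the AF4 family, differed in that both immature subsets held it alike, at 886, 845, 669 and 828 in cDC1 and 708, 819 and 715 in cDC2, and it fell to 140.5, 146 and 111 in mature cDC2 beside 678, 660.3 and 826 in mature cDC1. Apod, a lipid-binding lipocalin, fell from 1243 to 299 beside 131 and 171 in cDC1, and Ank, an exporter of pyrophosphate, from 3245 to 1052 beside 175 and 214. In replicate 3 the cDC2 effects were -4.91 for Flt1, -2.73 for Aff3, -2.43 for Apod and -1.83 for Ank.

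**Figure D3:**
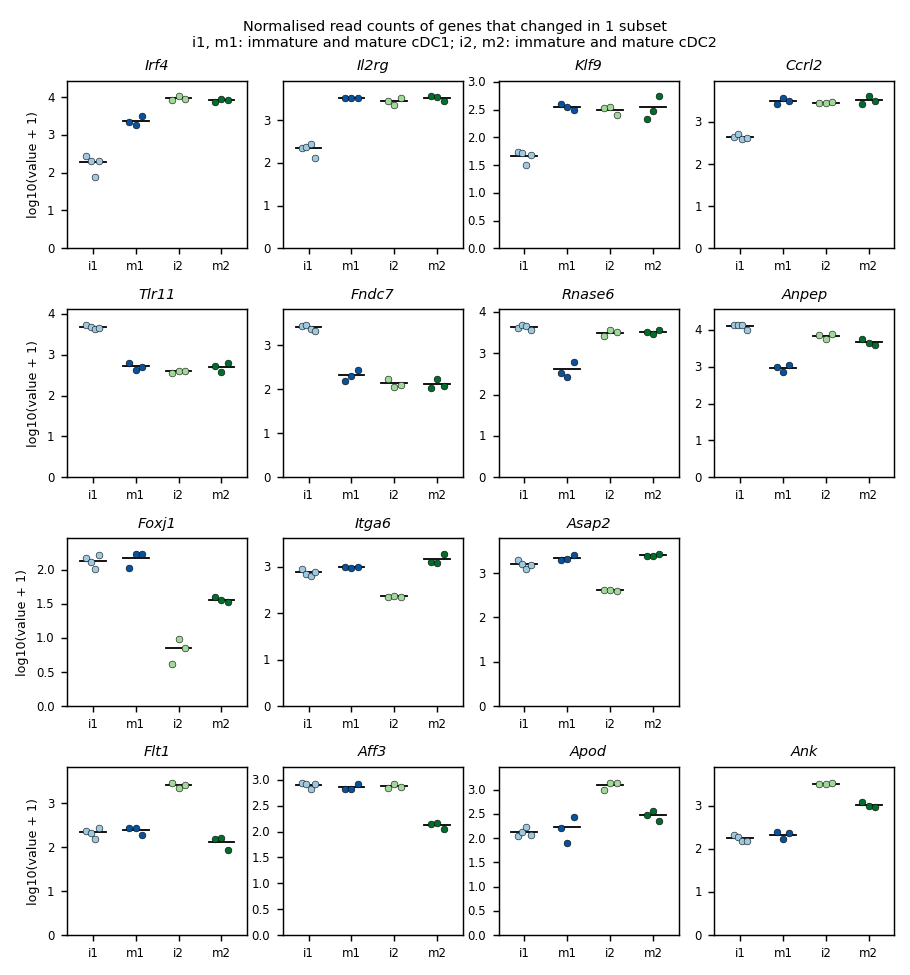
Normalised read counts (vertical axis, log10 of the value plus 1) in every thymic library for 15 genes that changed in 1 subset alone. Each point is a library and the horizontal bars are group means. Rows show, from top to bottom, rises in cDC1, falls in cDC1, rises in cDC2 and falls in cDC2. In each the other subset changed by less than 2-fold.

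Genes that define cDC1 mostly fell less, or rose more, in cDC2. Such genes are chosen for high levels in cDC1, and those near the floor in immature cDC2 have little room to fall there. How far this choice sets the lean of the list was not tested. Of 21 cDC1 identity genes tested, 15 had a positive and 0 a negative difference, with a median of 1.70, where 7.1% of all genes tested had a positive difference called and the median over all was 0.103. With replicate 3 as the lone mature cDC2 library 10 were called. Irf8, the transcription factor on which cDC1 depend, read 56864, 54385, 56852 and 48730.3 in immature and 33498, 33314 and 36006 in mature cDC1, and rose in cDC2 from 1781, 2534 and 3086 to 13229, 17175 and 10958. Its effects were -0.66 ± 0.19 and 2.49 ± 0.20, and they differed by 3.15 ± 0.27 (adjusted p = 4.40e-06). Batf3, its partner, rose in both subsets, by 1.82 and 2.78, and the difference of 0.95 ± 0.28 did not pass the threshold of size. Xcr1, the receptor for XCL1, fell by 5.51 in cDC1 and by 3.42 in cDC2 (difference 2.09 ± 0.59, adjusted p = 0.032), while Clec9a, a receptor for actin of dead cells, fell by 2.55 and 3.22 (difference -0.67 ± 0.34, adjusted p = 0.22). The TLR3 gene fell from a mean of 4393 to 12.7 in cDC1 and from 347 to 31.5 in cDC2, Cadm1, an adhesion molecule of cDC1, moved by -3.26 and -0.98, and Gcsam, a germinal centre signalling adaptor, by -4.93 and -0.48.

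The same limit on the choice of genes holds for the cDC2 identity list, with the subsets exchanged. For its 23 genes the calls lay on the other side, with 7 negative and 0 positive calls and a median of -0.93 (5% of all genes tested had a negative difference called). Besides Irf4, they included Sirpa, the receptor for CD47, with effects of 0.73 ± 0.21 in cDC1 and -1.07 ± 0.22 in cDC2, and S100a4, a calcium-binding protein, which rose from 5.91, 0.833, 3.12 and 0 to 177, 147 and 42.4 in cDC1 and was 450.5, 58.3 and 171 and 395, 199.8 and 119 in cDC2. Exons of a predicted gene overlap S100a4 on the same strand. Itgam (CD11b), a gate of the sort, fell in both subsets, by 4.09 and 4.73 (difference -0.64 ± 1.04, adjusted p = 0.75). The sign of that difference turned in the count tests, to 2.95 under edgeR and 1.84 under DESeq2. In cDC1, sorted as CD11b-, Itgam read only 6.76, 14.99, 17.2 and 36.4 in immature and 0, 0 and 0 in mature libraries. The size of its fall there thus depends on the pseudocount. In cDC2 it fell from 502, 445 and 305 to 25.3, 32.7 and 3.14. Among 32 transcription factors of dendritic cell fate, 4 had a positive and 8 a negative difference (beside 7.1% and 5% of all genes). Prdm1, which encodes BLIMP1, rose by 5.51 in cDC1 and 1.90 in cDC2 (difference -3.61 ± 0.78, adjusted p = 0.0074), and Myc fell by 5.09 and 2.32 (difference 2.77 ± 0.73, adjusted p = 0.022).

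Most genes of the maturation programme that cDCs share rose in both subsets, and those with a different effect rose more in cDC1. Of 33 members tested, 29 rose in both, 18 had a negative and 0 a positive difference (beside 5% and 7.1% of all genes), and the median was -1.60. Ccr7, on which the cells were sorted, read 709.6, 556, 966 and 624 in immature and 92666, 108484 and 129531 in mature cDC1, and 2662, 3608 and 3986 in immature and 92491, 115572 and 91722 in mature cDC2. The mature groups overlapped, the immature groups did not, and the effects of 7.29 ± 0.20 and 4.88 ± 0.21 differed by -2.41 ± 0.29 (adjusted p = 7.60e-05). Fscn1, which bundles actin in dendrites, and Socs2, an inhibitor of cytokine signalling, differed by -3.67 ± 0.33 and -3.65 ± 0.27. Cd63, a tetraspanin of late endosomes, went from 58.7 to 19539 in cDC1 and from 1230.1 to 16381 in cDC2 (difference -4.66 ± 0.35), and Pdcd1lg2, the coinhibitory ligand PD-L2, from 22.6 to 3002 and from 798 to 2649.8 (difference -5.45 ± 0.51).

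Over the 29 members that rose in both, the immature level was a median of 1.91% of the mature level in cDC1 and 7.27% in cDC2. The range was 0.1003% to 19.4% in cDC1 and 0.587% to 32.9% in cDC2. Esam, the other protein of the sort, did not share this pattern: it read 19.4, 25.8, 29.6 and 19.2 and 1167, 1125 and 1323 in cDC1 and 1.07, 8.70 and 14.02 and 1104, 924 and 896 in cDC2, so that its immature level was 1.95% of the mature level in cDC1 and 0.814% in cDC2, while for Ccr7 these were 0.648% and 3.42%. Whether mature cells within the immature sort had a part in these levels was not tested. Mature levels differed by less than 2-fold between the subsets for 30 of the 33 members. Cd86 and Cd80, the ligands of CD28, parted: Cd80 rose by 2.15 in cDC1 and moved by 0.76 in cDC2 (difference -1.39 ± 0.22, adjusted p = 7.89e-04), and Cd86 moved by -0.76 and 0.04 (difference 0.80 ± 0.21, adjusted p = 0.022), below the threshold of size.

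**Figure D4:**
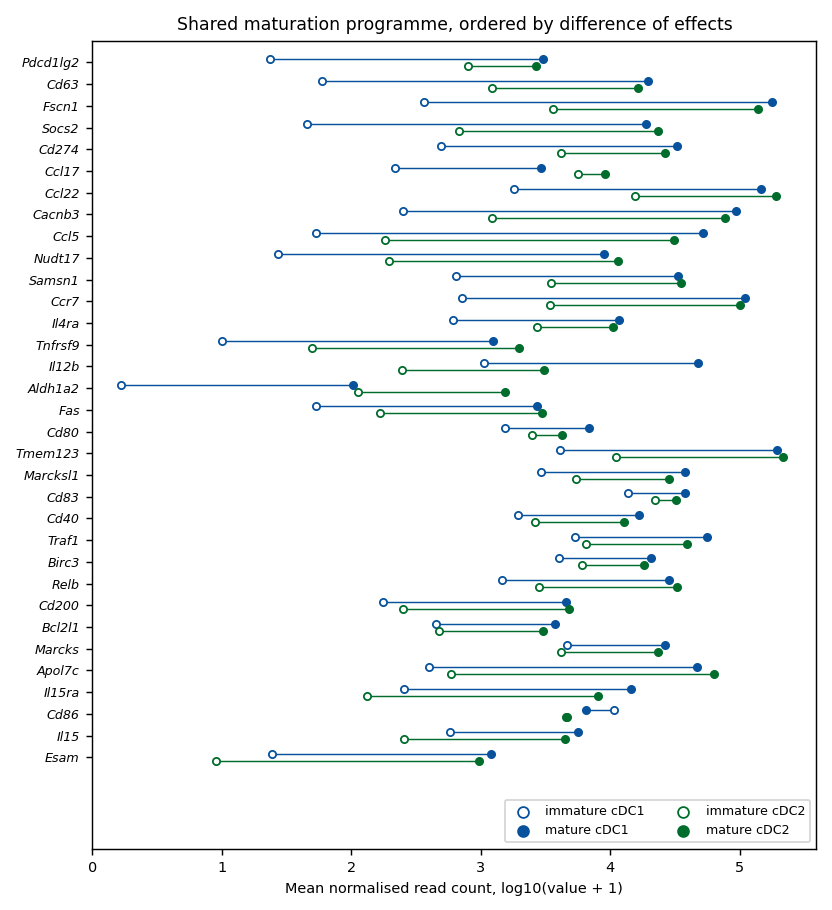
Mean normalised read count (horizontal axis, log10 of the value plus 1) of each tested member of the shared maturation programme in immature (open symbols) and mature (filled symbols) cDC1 and cDC2, with a line joining the 2 states of a subset. The mature symbols of both subsets lie within 2-fold of each other for 30 of 33 members, and the immature symbol of cDC2 lies more than 2-fold to the right of that of cDC1 for 17 and to the left for 4.

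Secreted signals and their receptors split in both directions. Each count of list members called over all libraries stands, here and below, beside 7.1% of all genes called positive and 5% called negative. Of 23 chemokine ligands tested, 3 had a positive and 7 a negative difference (median -0.12), and with replicate 3 as the lone mature cDC2 library these were 0 and 5. Ccl17, a ligand of CCR4, rose from 186, 214, 312 and 159 to 2684, 2598 and 3521 in cDC1 and was 5196, 5284 and 6586 and 9285, 11579 and 6581 in cDC2 (difference -3.12 ± 0.33, adjusted p = 2.71e-05). Cxcl9, a ligand of CXCR3, fell by 3.88 in cDC1 and 2.31 in cDC2, and Ccl3, a ligand of CCR1, by 5.16 and 2.54. In the refit with mature cDC2 replicate 3 alone the differences of Cxcl9 and Ccl3 were 1.17 (adjusted p = 0.12) and 1.77 (adjusted p = 0.43).

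Of 20 chemokine receptors, 5 had a positive and 3 a negative difference. Cxcr3 fell from 591, 631, 752 and 436 to 0, 0 and 0.800 in cDC1 and from 9.61, 22.1 and 20.2 to 5.37, 2.09 and 2.35 in cDC2 (difference 6.83 ± 0.74, adjusted p = 3.50e-05), and with mature values this near 0 the size of the difference depends on the pseudocount. Cxcr2, known as a neutrophil receptor, was near absent from cDC1, at 10.98, 9.99, 0 and 8.08 and 9.22, 0 and 3.20, and fell from 873, 638 and 855 to 9.98, 9.05 and 21.98 in cDC2 (difference -5.09 ± 1.299, adjusted p = 0.019). Ccr2, the receptor of CCL2, fell by 7.69 in cDC1 and 4.26 in cDC2 (difference 3.43 ± 1.16, adjusted p = 0.068). It read 869.8, 903 and 268 in the 3 mature cDC2 libraries, is itself a member of the monocyte list, and its difference was 2.28 (adjusted p = 0.46) with replicate 3 alone.

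Among 21 cytokines the counts were 3 positive and 6 negative, and Osm had the most negative difference. Il1rn, the natural antagonist of the interleukin-1 receptor, rose from 14.4, 7.50, 23.4 and 11.1 to 125, 302 and 309 in cDC1 and was 1877, 1885 and 1565 and 1004, 1458 and 894 in cDC2 (difference -4.72 ± 0.54, adjusted p = 5.46e-05). Il1a, its agonist, stood at 22.8, 34.1, 10.9 and 45.5 and 0, 0 and 16.8 in cDC1 and at 117, 168 and 169.8 and 169.7, 245 and 128 in cDC2, with a difference of 3.54 ± 1.22 (adjusted p = 0.073, and 0.35 with replicate 3 as the lone mature cDC2 library). Il18 fell by 3.71 in cDC1 and moved by -0.71 in cDC2 (difference 3.003 ± 0.72, adjusted p = 0.014). Il21r, the receptor of interleukin 21 and a partner of the common gamma chain, rose by 7.62 in cDC1 and 2.96 in cDC2 (difference -4.67 ± 0.25, adjusted p = 4.58e-08).

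Among ligands read by T cells negative differences prevailed. Of 22 costimulatory and coinhibitory ligands, 9 had a negative and 2 a positive difference (beside 5% and 7.1% of all genes). The median over this list was -1.19. Slamf1, a self-ligand on lymphocytes, went from 3.03 to 1538 in cDC1 and from 21.9 to 929 in cDC2. The positive calls were Btla, an inhibitory receptor of lymphocytes, with effects of -2.36 ± 0.20 and -0.65 ± 0.21, and Havcr2 (TIM-3), which fell by 5.33 and 4.26. Of 27 genes of NF-kB and its regulators, 8 had a negative and 0 a positive difference (beside 5% and 7.1% of all genes). All 27 leaned to the negative side. Tnip3, a partner of the deubiquitinase A20, rose from 150.4, 123, 93.6 and 66.7 to 1701, 1603 and 2108 in cDC1 and was 3734, 4285 and 3950.2 and 2246, 2529 and 3293 in cDC2 (difference -4.68 ± 0.33, adjusted p = 8.10e-07). Ikbke, a kinase of the innate response, rose by 5.41 and 2.65.

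Microbial sensors gave calls in both directions. Of 31 tested, 9 had a positive difference, Tlr12, Tlr11 and Tlr3 among them, and 5 a negative one (beside 7.1% and 5% of all genes). Tlr4, the receptor of lipopolysaccharide, fell from 97.1, 74.96, 35.9 and 82.9 to 0, 1.73 and 0 in cDC1 and was 96.1, 115 and 114 and 59.9, 59.2 and 40.8 in cDC2 (difference 4.61 ± 0.74, adjusted p = 9.18e-04, and 4.25 with adjusted p = 0.027 for replicate 3 alone). Ddx58, which encodes the RNA sensor RIG-I, moved by 0.94 ± 0.19 in cDC1 and -1.19 ± 0.20 in cDC2 (difference -2.14 ± 0.28, adjusted p = 1.50e-04).

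Interferon-stimulated genes leaned one way: 12 of 34 tested had a negative difference and 0 a positive one (beside 5% and 7.1% of all genes), with a median of -0.56, and 11 had a negative one with replicate 3 as the lone mature cDC2 library. Besides Ifit1 and Oasl2, they included Gbp4, an interferon-induced GTPase, which rose by 7.15 in cDC1 and 3.25 in cDC2 and whose exons overlap those of its relatives Gbp8 and Gbp9. Isg15, a ubiquitin-like modifier, and Ifit3, a relative of Ifit1, were named after their values were seen because their promoters are shown here. Isg15 averaged 2433 and 5244 in cDC1 and 3888 and 3761 in cDC2 (difference -1.14 ± 0.33, adjusted p = 0.033), and Ifit3 123 and 65.3 beside 3483 and 409 (difference -2.13 ± 0.36, adjusted p = 0.0013).

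Promoters of these genes were searched for GAAANNGAA on either strand, a core of the interferon-stimulated response element to which IRF and STAT factors bind. In RefSeq promoter windows of 250 bases before to 50 after the start site, 16 of 23 interferon-stimulated genes with an entry held a match, and 7 of the 9 called ones with an entry did, where 8.95% of 9672 genes tested with an entry held one. The 150 bases before the start site are printed for 3 that were called, to show how the matches lie, 5′ to 3′ on the strand of the gene, build GRCm38.p6, with matches on either strand in capitals. They lie at chr19:34640739-34640888 (plus strand) for Ifit1, chr19:34583379-34583528 (plus strand) for Ifit3 and chr4:156200819-156200968 (minus strand) for Isg15.
Ifit1: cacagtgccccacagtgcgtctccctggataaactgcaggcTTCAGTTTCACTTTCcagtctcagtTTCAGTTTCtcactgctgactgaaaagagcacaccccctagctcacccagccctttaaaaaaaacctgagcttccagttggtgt
Ifit3: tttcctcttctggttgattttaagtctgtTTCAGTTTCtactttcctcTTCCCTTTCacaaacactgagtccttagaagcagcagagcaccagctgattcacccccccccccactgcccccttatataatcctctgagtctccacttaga
Isg15: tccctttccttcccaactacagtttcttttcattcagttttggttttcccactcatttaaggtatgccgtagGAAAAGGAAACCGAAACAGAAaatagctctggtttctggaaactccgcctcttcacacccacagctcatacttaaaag
Ifit1 held 3 matches, Ifit3 2 and Isg15 3, overlapping ones counted separately. Among all genes with a different maturation effect the share with a match was 12%, and among the classes of opposite direction it was 1 of 13 genes with an entry that rose in cDC1 and 1 of 13 that rose in cDC2.

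The class II genes called all had a positive difference. Of 18 class II genes tested, 4 had a positive and 0 a negative difference (beside 7.1% and 5% of all genes). Ciita, the master activator of class II transcription, fell from 23051, 19307, 14975 and 18566 to 1336, 442 and 1801 in cDC1 and from 20786, 21033 and 18179 to 7245, 6692 and 4971 in cDC2 (difference 2.52 ± 0.50, adjusted p = 0.0041, and 2.19 with adjusted p = 0.075 for replicate 3 alone). March1, the ubiquitin ligase that removes class II from the surface, fell by 7.71 and 4.54 (difference 3.17 ± 0.79, adjusted p = 0.017). Rfx5, the factor that binds class II promoters with CIITA, rose alike, by 1.14 and 1.13, a difference with an interval of -0.40 to 0.39. Exons of Dexi lie opposite Ciita. For the class I path, Cd1d1, which presents lipids to natural killer T cells, rose from 545, 677, 573 and 582 to 1961, 1733 and 2747 in cDC1 and from 81.1, 123 and 109 to 4796, 4400.2 and 4923 in cDC2 (difference 3.67 ± 0.26, adjusted p = 8.10e-07), so that cDC2 passed from below to above cDC1. H2-M2, a non-classical class I molecule, differed by -3.60 ± 0.26, and Wdfy4, which cDC1 need for cross-presentation, fell by 6.59 in cDC1 and 4.43 in cDC2.

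A list of lysosomal proteases, the kind of enzyme the study is about, gave 5 negative and 2 positive differences among 23 (beside 5% and 7.1% of all genes). The list also holds Ppt1, a thioesterase and not a protease, which is among the positive calls. Lgmn, the asparagine endopeptidase, rose from 684, 759.6, 713 and 563 to 8413, 8513 and 13873 in cDC1 and from 2522, 2202 and 2435 to 7469, 8101 and 5962 in cDC2 (difference -2.30 ± 0.26, adjusted p = 4.49e-05). Ctsb, cathepsin B, rose by 1.33 in cDC1 and moved by 0.23 in cDC2, within 2-fold over its interval. Ctss, cathepsin S, which cuts the invariant chain, moved by 0.65 and -0.31, a difference of -0.96 ± 0.22 that lay just short of the threshold of size (adjusted p = 0.01). For Ctsl, cathepsin L, the difference was 0.60 ± 0.37 (interval -0.19 to 1.38, adjusted p = 0.32), for Ctsd, cathepsin D, -0.22 ± 0.69 (-1.70 to 1.26, adjusted p = 0.88), and for Prss16, the thymus-specific serine protease, 1.68 ± 0.91 (-0.27 to 3.63, adjusted p = 0.25), none of which was called. Prss16 was low in all groups, from 21.96 to 60.8 in immature cDC1 and 50.7 to 91.9 in mature cDC2. Ppt1, a thioesterase abundant in cDC1, fell from 71370.1, 75487, 75525 and 64827 to 942, 851 and 1608 in cDC1 and from 3221, 4407 and 4972 to 1059, 1113 and 858 in cDC2 (difference 3.999 ± 0.30, adjusted p = 9.37e-07), with exons of Cap1 opposite. Serpins, which inhibit proteases, split into 5 positive and 3 negative of 17, and Serpinb1a rose by 6.81 in cDC1 and 2.26 in cDC2.

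Uptake receptors of the lectin family mostly leaned to a negative difference. Of 30 C-type lectins, 11 had a negative and 3 a positive difference (beside 5% and 7.1% of all genes), with a median of -1.27. Cd209c and Cd209b, relatives of the lectin DC-SIGN, were near absent from cDC1 and fell in cDC2 from 552, 578 and 411 to 2.30, 4.18 and 0 and from 213, 216 and 157 to 0, 2.09 and 0. Cd209b was at 0, 0, 0 and 0 in immature cDC1, where a count of 0 allows up to 3 reads a library, so a fall there was not detectable, and reads of these near-identical paralogs may be split in counting. Cd207 (langerin) was 4764, 5368, 5850.0 and 5023 in immature and 55.3, 8.67 and 96.7 in mature cDC1 and 48.04 to 60.7 and 1.57 to 14.6 in cDC2 (difference 3.79 ± 0.98, adjusted p = 0.02). Of 24 scavenger receptors 7 were positive and 4 negative, and with replicate 3 as the lone mature cDC2 library 0 and 4, so no positive call of that list held in replicate 3 alone. Stab1, a macrophage scavenger receptor, was 922, 649 and 155 in mature cDC2. Mfge8, a bridge to apoptotic cells, rose by 4.90 in cDC1 and 1.28 in cDC2 (difference -3.63 ± 0.42, adjusted p = 5.39e-05).

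Adhesion and motility genes also differed. Of 33 integrins and adhesion molecules 10 had a positive and 5 a negative difference (beside 7.1% and 5% of all genes). Itgb8, whose product activates latent TGF-beta with integrin alpha V, rose from 3.38, 0, 1.56 and 1.01 to 1550.3, 979 and 1056 in cDC1 and from 9.61, 18.7 and 12.5 to 416, 522 and 432 in cDC2 (difference -4.06 ± 0.70, adjusted p = 0.0015), and all mature cDC1 libraries held more than all mature cDC2 libraries. Itgal, the alpha chain of LFA-1, fell by 6.23 in cDC1 and 2.42 in cDC2. Jag1, a Notch ligand, rose from 32.1, 17.5, 24.97 and 25.3 to 11191, 9462 and 11587 in cDC1 and from 58.7, 69.6 and 56.1 to 2374, 2699 and 2917 in cDC2 (difference -3.30 ± 0.30, adjusted p = 6.28e-06), while Notch4, a receptor, fell by 6.51 and 2.49. Il4i1, an amino acid oxidase linked to tolerance, rose by 6.74 in cDC1 and 2.74 in cDC2 (difference -3.996 ± 0.35, adjusted p = 4.10e-06), but its exons overlap those of Nup62 on the same strand.

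The cell cycle genes called fell in both subsets, most of them further in cDC1. Of 34 tested, 9 fell more in cDC1 and 2 fell more in cDC2, and with replicate 3 as the lone mature cDC2 library 2 and 1 were called. Mki67, the Ki-67 antigen of cycling cells, went from 14159.6, 11250.3, 10033 and 11111 to 4037, 4305 and 4183 in cDC1 and from 14626, 13141 and 12274 to 1506, 2544 and 3023 in cDC2 (difference -1.09 ± 0.28, adjusted p = 0.021). Cdk1, the kinase of mitotic entry, fell by 1.45 and 2.49 (difference -1.04 ± 0.23, adjusted p = 0.0093), whereas Ccnb1, its cyclin, fell by 5.49 and 3.33 (difference 2.17 ± 0.60, adjusted p = 0.027). The kinase and its cyclin thus had differences of opposite sign.

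Respiratory chain and ribosomal genes gave no call over all libraries. None of 32 respiratory chain subunits and none of 36 ribosomal proteins was called by limma, with 4 and 9 at an unadjusted p below 0.05 (beside 26.9% of all genes), 0 and 0 called by edgeR and 0 and 0 by DESeq2. Their median differences were 0.36 and 0.62, beside 0.103 for all genes. The difference, though not called, was positive for 24 of the 32 respiratory chain subunits and for 35 of the 36 ribosomal proteins. With replicate 3 as the lone mature cDC2 library the medians were 0.02 and 0.22. Without mature cDC1 replicate 3, 3 ribosomal proteins and 0 respiratory chain subunits had a positive difference. In the glycolysis list Pfkl, the liver-type phosphofructokinase, fell by 1.53 in cDC1 and moved by -0.05 in cDC2, and Pfkfb3, which raises its activator, rose by 4.42 and 3.002. In cholesterol synthesis Lss, lanosterol synthase, rose by 1.16 in cDC2 and moved by 0.14 in cDC1, just past the threshold (difference 1.02 ± 0.26, adjusted p = 0.018).

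The counts of the lists that follow are small, and each stands beside 7.1% of all genes tested with a positive and 5% with a negative difference. Receptors of growth factors and cytokines gave 1 positive and 5 negative of 32 tested. Il1rl1, the receptor of interleukin 33, was at 3.38, 0, 0 and 0 and 0, 0 and 5.60 in cDC1 and fell from 136, 133 and 119.9 to 5.37, 3.48 and 0.785 in cDC2 (difference -5.51 ± 1.20, adjusted p = 0.0079). Il6ra, the receptor of interleukin 6, fell by 4.62 in cDC1 and 2.99 in cDC2. STAT and SOCS genes gave 1 positive and 5 negative of 23, with Stat4, which signals for interleukin 12, rising from a mean of 10.96 to 4129 in cDC1 and from 185 to 4719.6 in cDC2, and Socs1 rising by 1.67 in cDC1 and 2.70 in cDC2. A predicted gene overlaps exons of Stat4 on the same strand. Receptors of the TNF superfamily gave 1 positive and 4 negative of 21 (1 and 5 with replicate 3 as the lone mature cDC2 library, and 4 and 4 without mature cDC1 replicate 3): Tnfrsf4 (OX40) and the death receptor gene Fas rose by 8.01 in cDC1 and 5.65 in cDC2 and by 5.75 in cDC1 and 4.16 in cDC2, and Tnfrsf21, another death receptor, fell by 4.67 in cDC1 and 1.74 in cDC2. In the BCL2 family 0 positive and 3 negative of 14 were called, among them Bcl2l11 (BIM, which promotes cell death), at 914, 866, 688 and 889 and 3156, 2360.4 and 3452 in cDC1 beside 2426, 2559 and 2187 and 2535, 2455 and 2647 in cDC2 (difference -1.73 ± 0.21, adjusted p = 9.47e-05), and the survival gene Bcl2a1b, whose paralogs are near-identical.

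The TGF-beta pathway gave 2 positive and 3 negative of 25. Smad3, a mediator of TGF-beta, rose from 66.7, 64.96, 57.7 and 79.8 to 608, 529 and 770.0 in cDC1 and was 191, 174 and 187 and 258, 345 and 215 in cDC2 (difference -2.67 ± 0.35, adjusted p = 1.62e-04), and Tgif1, a corepressor of SMADs, had effects of 1.74 in cDC1 and 0.097 in cDC2. Acvrl1, the receptor ALK1, fell by 2.54 in cDC1 and 1.47 in cDC2. Besides Jag1 and Notch4, the Notch pathway (3 positive and 1 negative of 24) held Dtx4, a ubiquitin ligase, with effects of -1.59 in cDC1 and 0.32 in cDC2. Immediate-early transcription factors gave 2 positive and 2 negative of 24 (0 and 2 with replicate 3 as the lone mature cDC2 library, and 6 and 2 without mature cDC1 replicate 3): Batf, an AP-1 factor, was 206, 197, 315 and 142 and 194, 215 and 491 in cDC1 and 326, 371 and 330.2 and 90.6, 109 and 74.6 in cDC2 (difference -2.31 ± 0.49, adjusted p = 0.0066), Klf2 had effects of -0.76 in cDC1 and 0.77 in cDC2, and Egr3 and Fosl2 fell in both subsets by 5.44 and 4.31 and by 1.27 and 2.36.

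The eicosanoid pathway gave 4 positive and 6 negative of 21. Ptgs2, the inducible cyclooxygenase, rose from 128, 208, 54.6 and 233 to 8581, 9882 and 8346 in cDC1 and from 3708, 5523 and 3037 to 6508, 10189.6 and 12986 in cDC2 (difference -4.76 ± 0.57, adjusted p = 7.60e-05). Ptger2, a receptor of prostaglandin E2, was 157, 102, 170.1 and 134 and 0, 46.8 and 15.2 in cDC1 and 7.47, 1.34 and 1.56 and 9.21, 11.1 and 16.5 in cDC2 (difference 5.73 ± 1.42, adjusted p = 0.017), with exons of predicted genes opposite. Cysltr1 and Ltb4r1, receptors of leukotrienes, differed by 2.89 ± 0.71 and -4.76 ± 1.10, and Ltb4r1 was at 0, 0 and 0 in mature cDC1, under the limit that a count of 0 allows. Tolerogenic enzymes gave 0 positive and 3 negative of 16, with Arg2, the mitochondrial arginase, rising by 8.56 in cDC1 and 4.75 in cDC2.

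Fc receptors gave 3 positive and 1 negative of 10. Fcgr2b, the inhibitory receptor of IgG, read 1094, 1276 and 320.2 in the mature cDC2 libraries, again lowest in replicate 3, and its difference of 4.25 ± 1.34 (adjusted p = 0.052) had an adjusted p of 0.4 in replicate 3 alone. Fcrl1 had effects of -4.67 in cDC1 and -0.81 in cDC2, and Fcer1g, the signalling gamma chain, of 0.22 and -0.998. Complement components gave 1 call among 14. Clec4b2, a lectin, fell by 8.58 in cDC1 and 4.12 in cDC2, and Itga8, an integrin subunit, by 7.16 and 3.46, whereas Itgb5 rose by 2.30 in cDC1 and moved by 0.26 in cDC2.

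Lysosomal and V-ATPase genes gave 4 positive and 5 negative of 33 (0 and 6 with replicate 3 as the lone mature cDC2 library, and 9 and 3 without mature cDC1 replicate 3). Lamp1, a membrane protein of lysosomes, rose from 1380.3, 1372, 1348 and 1234 to 32801, 32664 and 38569 in cDC1 and from 6600.2, 6550.0 and 6886 to 39979, 38627 and 40581 in cDC2 (difference -2.12 ± 0.16, adjusted p = 1.04e-06). Psap, the precursor of saposins, had effects of -2.07 in cDC1 and -0.88 in cDC2, and Cd68, a lysosomal glycoprotein of phagocytes, fell by 3.95 in cDC1 and 2.12 in cDC2 (adjusted p of the difference 0.032, and 0.42 in replicate 3 alone). Of the proteases, Scpep1, a serine carboxypeptidase, rose by 3.61 in cDC1 and 1.27 in cDC2, and Ctse, cathepsin E, fell by 6.34 and 2.60. Serpinb8 and Serpinf1 fell by 7.84 and 2.69 and by 9.81 and 5.19. Metalloproteases and their inhibitors gave 2 positive and 2 negative of 24, with Adam8 changed in cDC2 alone, by 1.89 beside 0.53, and Adam11 rising by 4.06 in cDC1 and 1.93 in cDC2.

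Actin and motility regulators gave 3 positive and 8 negative of 39 (0 and 7 with replicate 3 as the lone mature cDC2 library, and 5 and 8 without mature cDC1 replicate 3). Myo1f, a class I myosin, and Was, which drives branched actin, fell by 6.99 in cDC1 and 3.75 in cDC2 and by 2.40 and 1.23. Glycolysis and hypoxia targets gave 3 positive and 3 negative of 26, and Hk2, hexokinase 2, fell by 4.56 in cDC1 and 2.99 in cDC2, whereas Slc2a6, a sugar transporter, rose by 3.90 and 1.49. In the unfolded protein response (2 positive and 0 negative of 29) Sdf2l1 fell by 3.15 in cDC1 and 1.72 in cDC2 and Ern1, the sensor IRE1, had effects of -1.33 and -0.28. In cholesterol synthesis (2 positive and 0 negative of 24) Dhcr7 had effects of -1.68 in cDC1 and -0.46 in cDC2, and in cholesterol efflux (1 positive and 1 negative of 15) the exporter Abcg1 rose by 2.76 and 1.62 and Scarb1 fell by 4.47 and 3.35. Class I presentation gave 3 positive and 1 negative of 25, a share close to that of all genes. Bub1, a kinase of the spindle checkpoint, fell by 5.63 in cDC1 and 3.78 in cDC2, and Prkcb, the protein kinase that acts on the phagocyte oxidase, by 2.63 and 1.43.

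Besides the lists whose refitted counts are given above, several moved by over 1.5 times and by at least 2 genes. Without mature cDC1 replicate 3 the positive calls went from 9 to 14 for cell cycle genes, 2 to 4 for the unfolded protein response, 1 to 3 for complement, 2 to 4 for the TGF-beta pathway, 3 to 6 for the Notch pathway and 0 to 2 for tolerogenic enzymes. With replicate 3 as the lone mature cDC2 library the positive calls went from 5 to 2 for chemokine receptors, 3 to 1 for cytokines, 9 to 5 for microbial sensors, 4 to 2 for class II genes, 10 to 6 for integrins and adhesion molecules, 3 to 0 for Fc receptors, 2 to 0 for the TGF-beta pathway and 4 to 2 for the eicosanoid pathway. The negative calls went in that refit from 1 to 3 for cholesterol efflux, 3 to 5 for glycolysis and hypoxia targets and 3 to 1 for tolerogenic enzymes.

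Among all genes named here by rule or by value, the following had a difference that was called over all libraries and not with replicate 3 as the lone mature cDC2 library: Acvrl1, Arg2, Bcl2a1b, Bub1, Ccl3, Ccnb1, Ccr2, Cd207, Cd68, Ctse, Cxcl9, Cxcr2, Dhcr7, Egr3, Fas, Fcgr2b, Fcrl1, Foxj1, Havcr2, Il18, Il1a, Il6ra, Klf2, March1, Mki67, Myc, Myo1f, Prkcb, Psap, Scarb1, Sdf2l1, Serpinf1, Slamf1, Socs1, Stab1, Stat4, Tlr3, Was and Xcr1.

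**Figure D5:**
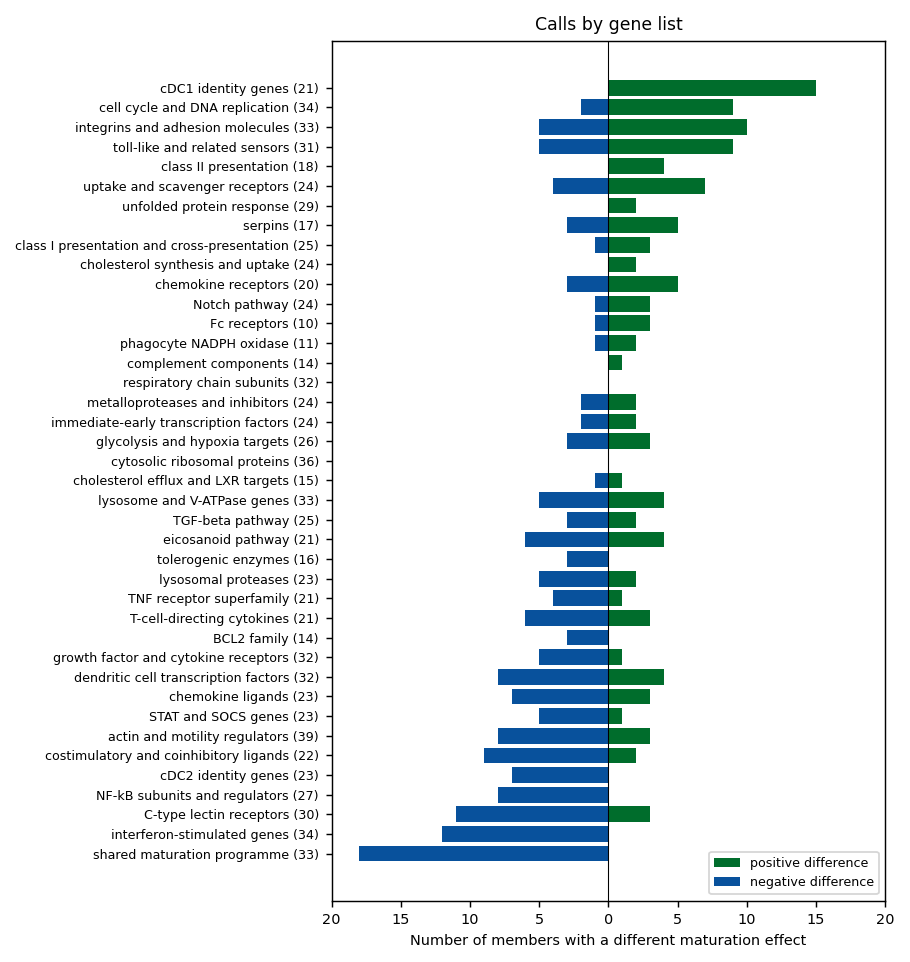
Number of members of each gene list with a different maturation effect (horizontal axis), to the right those with a positive difference (rose more or fell less in cDC2) and to the left those with a negative difference (rose more or fell less in cDC1), with the number of members tested after each name. The cDC1 identity list has 15 on the right and 0 on the left, and the shared maturation programme 0 and 18.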

How the data were processed

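Thymic and splenic cDCs were sorted and sequenced by the authors as stranded mRNA libraries (TruSeq Stranded mRNA, paired ends). Reads were trimmed with Cutadapt, aligned to mm10 with STAR 2.6, counted per Ensembl gene with HTSeq-count and divided by size factors in DESeq2 1.24.0, per the labels and the study's methods. The annotation release and the strand setting are not given in the sources used here. The deposited signal is this normalised read count, 1 value per gene and library. In every library all values were whole multiples of 1 read within 0.001 of a read, so the reads were recovered, and thymic libraries held 14266867 to 40119669 of them.

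Groups followed the labels, and no per-sample column was left unused. A gene was tested when 3 or more of the 13 thymic libraries reached a value of 10. The test was limma 3.58.1 in R 4.3.3 (intensity trend, 4 group means, no covariate) on log2 of the value plus 1, so changes of low genes are understated. The contrast was the effect in cDC2 minus that in cDC1, and a call required a p, adjusted by Benjamini-Hochberg over all tested genes, under 0.1 together with a size beyond 1. Effects within a subset used the same limits, and a gene of 1 subset alone had to have the 95% interval of the other effect within those 2-fold limits. Tests are two-sided, and p-values measure the spread between pools, of which nothing says that they are independent beyond their label.

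On simulated data (14107 genes) limma recovered 72.7% of changed genes between log2 1.5 and 2 and 77.6% between 2 and 3, and 28 of 180 calls were false. Alternatives used edgeR 4.0.16 and DESeq2 1.42.0 on the recovered reads, other normalisation, filters, pseudocounts, thresholds, libraries and blocks. The comparison, gene lists and rules were chosen with earlier results of these data known. Genes were named by size of the difference (up to 6 per opposite class, 4 per class of 1 subset and 2 per list and direction, with a group mean of at least 100), beside sort genes, subset markers and enzymes that the study names. Hivep2, Ifit3, Isg15, Oasl2 and Rin2 were named after their values were seen. A few genes that the rule names are not reported here.

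The annotated exons of 14 named genes (Ank, Asap2, Bcl2a1b, Clec9a, Ctsd, Ctsl, Gbp4, Il2rg, Il4i1, Itgam, S100a4, Stat4, Ticam2 and Trpm2) overlap another gene on the same strand in GENCODE M21, and 24 have exons of another gene opposite, so their counts are uncertain. Immature cDC1 replicates 3 and 4 carry the same index, lane and number but differed beyond sampling noise (chi-square per degree of freedom 100.5, against 24.6 to 93.6 for other pairs of that group) and were kept apart. In lane 8, 4 indexes occur in a pair of thymic libraries each. The mean correlation of deviations was 0.03 over 8 pairs of same-numbered libraries of different groups (-0.17 to 0.31) and -0.00369 over 55 others. Between immature cDC1 and immature cDC2 it was -0.17 for replicates 1, 0.28 for replicates 2 and 0.31 for replicates 3. For immature cDC1 replicate 4 with immature cDC2 replicate 3 it was -0.09. So few pairs cannot show that pairing is absent, and the main fit took no account of it.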

Additional observations from a re-analysis of the deposited data

Results flagged for a closer look

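The maturation effect differed between the 2 subsets by limma's test of the difference itself for 1757 genes, and for 46 of them the subsets moved in opposite directions. Among these, the difference (cDC2 minus cDC1, log2) was -5.65 for Osm, -5.42 for Xkrx, -4.52 for Ccl9, -3.87 for Axl, -3.77 for Ifit1 and -3.77 for Ifitm1, which rose in cDC1 and fell in cDC2. It was 4.92 for Tlr12, 3.50 for Cdc42bpg, 3.22 for Fam160a2, 2.71 for Trpm2 and 2.00 for Slc1a4, which did the converse. In immature cDC1, the group of 4 in which a single library can be tested for standing apart (Dixon's 95% limit), 5 of 150 named genes had such a library, where chance gives about 1 in 20. Anpep was 9967 in replicate 4, where the others ranged from 13627 to 13905. Scarb1 was 1974 in replicate 4, where the others ranged from 2597 to 2661. Cd209c was 9.161 in replicate 2, where the others ranged from 0 to 0.845. Il1rl1 was 3.379 in replicate 1, where the others were at 0. Ctsd was 371.4 in replicate 3, where the others ranged from 157 to 191.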

How the results depend on the processing

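Over the alternatives run, all 46 genes of opposite direction that could be tested kept the sign of their difference. All 1757 called genes that could be tested kept that sign too, except 2 under edgeR and 21 under the fixed replicate block. Keeping the sign did not keep a gene in the class of opposite direction. Of the 46, DESeq2 kept 37 in that class, edgeR 35, the lane 8 fit 28 and the fixed replicate block 7. The genes called were not the same ones throughout. Of the 1757, DESeq2 shared 1591, edgeR 1544, the lane 8 fit 1111 and the fixed replicate block 543. The counts that follow are those that moved by over 1.5 times. Within lane 8, 1156 were called, 557 positive and 106 in cDC1 alone. Alternatives chosen after seeing the data gave 2849 called, 1985 positive, 77 opposite, 312 in cDC1 alone and 122 in cDC2 alone without replicate 3 of both mature groups, and 1099 called, 479 positive and 92 in cDC1 alone with replicate 3 as the lone mature cDC2 library. The cause of these moves was not tested.

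A difference beyond 2 on the log2 scale was met by 872 genes, 516 positive and 356 negative, with 10 of opposite direction and 23 and 8 in 1 subset. The adjusted p alone gave 1114 negative, 94 opposite, 496 in cDC1 alone and 274 in cDC2 alone. Holding the still subset within 0.5 in place of 1 left 24 genes in cDC1 alone and 6 in cDC2 alone. Requiring a mean of at least 100 left 19 genes of opposite direction, with fewer genes tested. Genes in cDC2 alone numbered 134 with no filter and 179 with a pseudocount of 8. edgeR gives no interval, so the classes of 1 subset alone had no value there.

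With the leading number of the library name as a fixed replicate block, which leaves 3 residual degrees of freedom in place of 9, 851 genes were called, 283 positive, 22 opposite and 34 in cDC1 alone. Mature cDC2 replicates 1 and 2 and mature cDC1 replicate 2 carry numbers of their own, so the fixed block absorbs them. As a random block the leading number gave 1719 and changed no call of a named gene. The positive share of calls was 58.7%, and 33.3% under the fixed block, 43.6% with replicate 3 as the lone mature cDC2 library, 48.2% in lane 8 and 69.7% without replicate 3 of both mature groups. Leaving out 1 library at a time gave 1361 to 2502 called genes, 707 to 1696 positive, 615 to 806 negative, 36 to 78 opposite, 119 to 252 in cDC1 alone and 60 to 106 in cDC2 alone. The highest values came without mature cDC1 replicate 3, or for cDC2 alone without mature cDC2 replicate 3, and the lowest without mature cDC2 replicate 1, or for positive calls replicate 2.

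Of 151 named genes, 148 kept their side of the threshold and direction with TMM scaling, 142 under edgeR, 147 under DESeq2, 93 under the fixed block and 110 with replicate 3 as the lone mature cDC2 library. Leaving out 1 library ended the call of 25, given here under the library with the least support. Without immature cDC2 replicate 1 the adjusted p was 0.11 for Bcl2a1b and the difference was 0.99 for Acvrl1. Without immature cDC2 replicate 3 the difference was -0.93 for Cdk1. Without mature cDC1 replicate 1 the difference was 0.94 for Ern1. Without mature cDC1 replicate 3 the difference was 0.88 for Lss, -0.99 for Abcg1 and -0.87 for Isg15. Without mature cDC2 replicate 1 the adjusted p was 0.13 for Dhcr7, 0.2 for Scarb1 and 0.19 for Stab1 and the difference was -0.80 for Fosl2 and -0.80 for Mki67. Without mature cDC2 replicate 2 the adjusted p was 0.15 for Ccl3, 0.16 for Ccr2, 0.17 for Il1a, 0.11 for Havcr2, 0.12 for Egr3, 0.13 for Ctse, 0.18 for Bub1, 0.12 for Fcgr2b, 0.17 for Prkcb, 0.2 for Psap and 0.22 for Socs1. Without mature cDC2 replicate 3 the difference was -0.98 for Fcer1g and -0.78 for Ctsb. The sign changed for 4 genes. That of Bub1 (1.84 over all libraries) was -0.2278 under the fixed block. That of Ctsd (-0.22 over all libraries) was 0.0304 under edgeR, 0.7313 without replicate 3 of both mature groups and -0.5828 to 0.4948 over single libraries left out. That of Itgam (-0.64 over all libraries) was 1.84 under DESeq2, 2.95 under edgeR, 0.3095 without replicate 3 of both mature groups, 2.445 with a pseudocount of 0.1 and -1.203 to 0.3095 over single libraries left out. That of Rfx5 (-0.0069 over all libraries) was 0.04764 with TMM scaling, 0.03556 under edgeR, 0.1733 with replicate 3 as the lone mature cDC2 library, 0.1563 under the fixed block, 0.0257 with immature cDC1 replicates 3 and 4 averaged and -0.09705 to 0.09296 over single libraries left out. Reads limit genes near 0, such as Cxcr3 and Cd209b, where the size depends on the pseudocount.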
